A study of Schizosaccharomyces pombe with 30 samples.

Results

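The regions described here are the Seb1 crosslink sites that lie 1 to 250 nt after the annotated 3′ end of a protein-coding gene of *S. pombe*, on the strand of that gene, where the next protein-coding gene downstream faces it on the opposite strand. They were taken from the list of crosslink sites by position alone, using the RefSeq annotation of assembly ASM294v3, and each site was assigned to the nearest 3′ end. A site inside any annotated gene of its own strand was left out. This gave 1183 sites, which is 7.49% of the 15789 sites on the nuclear chromosomes and 52.7% of the 2245 sites found after protein-coding 3′ ends. They lie after 590 of the 2730 convergent 3′ ends that have at least 1 eligible nt. The other 1062 sites, after 490 of 2125 such ends, belong to tandem genes, in which the next gene has the same direction, and served for comparison. A next gene was allowed to overlap the 3′ end, and 523 of the 1183 sites have such an overlapping partner. After genes without an annotated 3′ UTR lie 28 of the 1183 sites, and where the transcripts of these genes end was not examined. With only 3′ ends that have an annotated UTR of at least 50 nt, 1077 sites remained.

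The sites come from 1 library made by PAR-CLIP, in which RNA labelled with 4-thiouracil is crosslinked to the protein by UV light, purified with it and sequenced, and crosslinked bases are read as T-to-C transitions. The cells had the genotype h-, seb1::seb1-TAP::KanMX, so that the only Seb1 of these cells carries the tag. Growth was at 30 °C with 10 mg/l uracil, 4% glucose and 100 μM 4-thiouracil, followed by a further 900 μM for 4 h and irradiation with 12 J per cm2 at 365 nm. An RNA-Seq library of h- cells, labelled in the same way, was used by the authors for the occupancy, which is the number of reads with a T-to-C transition at a site relative to transcript abundance, with a maximum of 1. There is no replicate of the PAR-CLIP library and no library without the tag was used here, so no test between conditions was possible. All intervals are 95% intervals that cover counting error only, and sites of 1 gene are not independent of each other.

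When RNA polymerase II has passed the polyadenylation signal (PAS), the pre-mRNA is cleaved and polyadenylated while the polymerase goes on to transcribe until it is released. RNA crosslinked after the 3′ end of a gene can therefore, as background, come from a polymerase that has not yet terminated. It can also belong to transcripts that ended further downstream, past the annotated 3′ end. Between convergent genes this RNA is made towards a neighbour that is transcribed in the opposite direction, and beyond the neighbour's own 3′ end it is antisense to the neighbour. Seb1 is the fission yeast relative of budding yeast Nrd1 and carries a domain that binds the phosphorylated C-terminal domain of the polymerase and a domain that binds RNA.

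To show what these regions look like, the leading sites of 7 of the 3′ ends with the most sites are printed in RNA letters, 5′ to 3′, with every UGUA in capitals. The crosslinked U is the 26th of 51 bases, or the 15th of 29 bases where the site lies opposite the partner gene. They are rpl3401 (chrI:4093307-4093357, minus strand), tvp15 (chrI:1316704-1316754, plus strand), rpl801 (chrI:4250482-4250532, minus strand), rpl15 (chrIII:2100576-2100626, plus strand), eft202 (chrIII:539922-539972, plus strand), ssc1 (chrI:1728327-1728355, plus strand) and rpl44 (chrI:911181-911209, minus strand), all in ASM294v3.
rpl3401: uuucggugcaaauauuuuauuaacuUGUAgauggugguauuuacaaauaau
tvp15: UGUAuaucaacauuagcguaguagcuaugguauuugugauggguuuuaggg
rpl801: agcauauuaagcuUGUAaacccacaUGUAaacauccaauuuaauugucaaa
rpl15: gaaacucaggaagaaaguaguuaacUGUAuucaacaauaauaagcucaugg
eft202: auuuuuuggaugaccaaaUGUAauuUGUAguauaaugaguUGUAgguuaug
ssc1: augcuuuuucguaauucauucacguaggu
rpl44: gauaauaggcuugauUGUAuacgauagcu
At rpl3401, rpl801, rpl15 and eft202 the crosslinked base is the first U of a UGUA. At rpl44 it lies 1 nt before one, and at tvp15 25 nt after the first U of one. The leading site of ssc1 has no UGUA within 25 nt.

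The 10 3′ ends with the most sites hold runs of crosslinked bases. rpl3401, which encodes protein L34 of the large ribosomal subunit, has 20 sites between 11 and 179 nt after its 3′ end with 4 to 31 transitions each, and all of them lie before the 3′ end of its partner rnf170, 221 nt away. The strongest is 12 nt after the 3′ end, with 31 transitions in 262 reads. tvp15, annotated as a COPI-coated vesicle-associated protein, has 14 sites at 24 to 143 nt with 3 to 30 transitions, of which the strongest lies at 86 nt with 30 transitions in 675 reads. rpl801, for ribosomal protein uL2, has 14 sites at 8 to 224 nt with 4 to 34 transitions.

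rpl22, for ribosomal protein eL22, has 12 sites at 1 to 135 nt with 6 to 14 transitions, and 7 of them lie opposite its partner ofd2, whose 3′ end is only 41 nt away. ssc1, which encodes a chaperone, overlaps its partner sdh6 by 48 nt, so that all 12 of its sites, at 7 to 207 nt with 4 to 11 transitions, are antisense to sdh6. In the same way all 10 sites of rpl44, at 17 to 129 nt with 5 to 29 transitions, are antisense to pli1. At these 3 ends, runs of sites were thus found opposite an annotated gene of the other strand.

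The other ends of this group are rpl15 (11 sites, 5 to 31 transitions), rpl39 (10 sites, 7 to 19 transitions), eft202 (10 sites, 3 to 16 transitions) and the uncharacterized gene SPCC594.02C (10 sites, 4 to 13 transitions), all with their sites before the partner. eft202 encodes translation elongation factor 2. Of the 10 genes, 6 encode ribosomal proteins. All 10 sites of rpl39 and all 10 of SPCC594.02C have a UGUA within 25 nt, against 7 of 14 at tvp15.

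**Figure D1:**
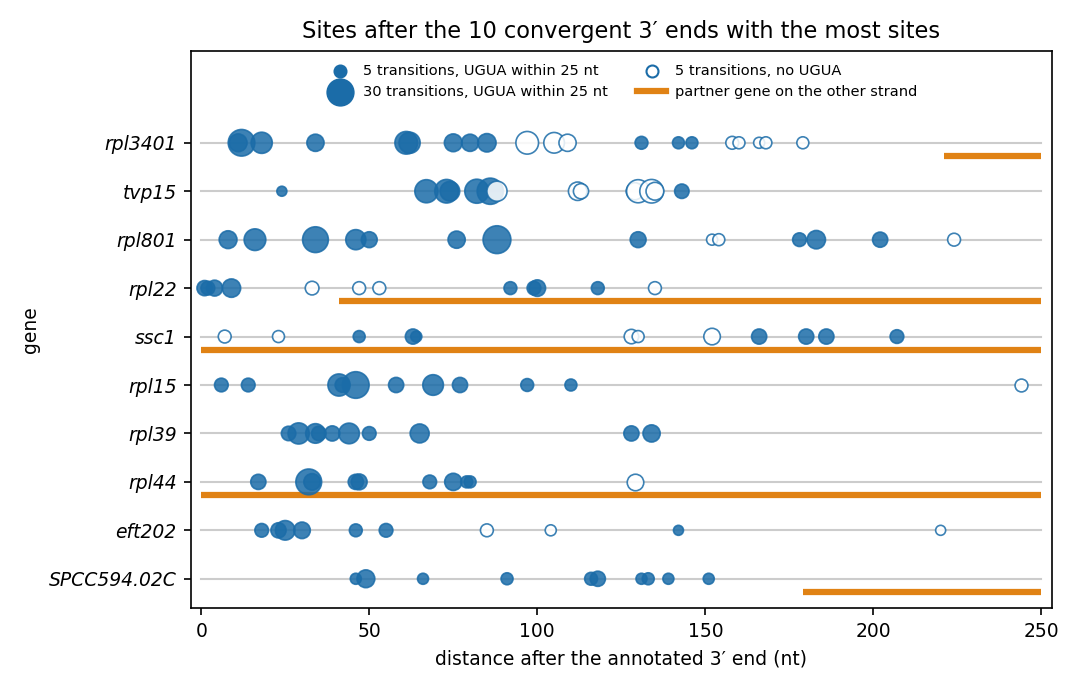
Crosslink sites after the 10 convergent 3′ ends with the most sites, by distance after the annotated 3′ end in nt. Circle area grows with the number of transitions, filled circles have a UGUA within 25 nt, and orange bars mark the partner gene on the other strand. The 12 sites of ssc1 and the 10 of rpl44 all lie opposite the partner, whereas the 20 of rpl3401 all lie before it.

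Such clusters were the exception. A single site was found at 352 of the 590 ends, 121 ends had 2 sites, and 26 ends had 6 or more and held 237 sites (20%). The depth at 1 site was low. The median convergent site had 3 transitions in 20 reads, against 3 in 24 reads at tandem sites and 2 in 13 reads over all nuclear sites, and 481 convergent sites (40.7%) rested on 2 transitions. None of the 51-nt surroundings of the 1183 sites occurs more than once in the nuclear genome. Shorter stretches, as in shorter reads, were not examined in this way.

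The sites lay close behind the 3′ end. Their median distance was 75 nt (interval 70 to 80 nt), with quartiles at 34.5 and 130 nt, and 953 of them (80.6%) lay within 150 nt. Tandem sites had a median of 78 nt (70 to 83 nt). Per 1000 eligible uridines, which corrects for the bases that can be crosslinked, convergent ends had 8.77 sites (7.95 to 9.66) in the first 50 nt and 3.29 sites (2.68 to 3.99) in the last 50 nt of the window. Ends with member sites also held sites in the gene itself more often. Of the 590 ends with sites, 259 (43.9%, 39.9 to 47.9%) had a site in the last 250 nt of the gene, against 403 of 2140 convergent ends without (18.8%, 17.2 to 20.5%). Transcript levels of ends without sites were not used here, and their part in this difference was not tested.

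Taken over all gaps to the next gene, convergent 3′ ends carried sites somewhat less often than tandem 3′ ends. Among ends with all 250 nt eligible, 449 of 1929 convergent ends (23.3%, 21.4 to 25.2%) had at least 1 site, against 336 of 1209 tandem ends (27.8%, 25.3 to 30.4%), a difference of -4.52 percentage points (-7.69 to -1.39). Over all 3142 protein-coding ends with such a window, 25% had a site. Per eligible kb, there were 2.05 sites after convergent and 2.44 after tandem ends, a ratio of 0.838 (0.771 to 0.912). Of the eligible bases, 33% were U at convergent and 36.7% at tandem ends, and per uridine the ratio was 0.932 (0.857 to 1.01).

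This difference depended on how partners and windows were defined. With overlapping partners passed over, the difference in shares was -1.24 points (-4.28 to 1.85) and the ratio per kb was 1.01 (0.926 to 1.1). With all ends that have at least 1 eligible nt, the difference was -1.45 points (-3.82 to 0.906). Also, 47.3% of eligible nt at tandem ends lie opposite an annotated non-coding gene, against 4.23% at convergent ends. Without these nt the difference was -1.16 points (-5.76 to 3.09), while the density ratio was 0.824 (0.743 to 0.914).

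The share of convergent ends with a site varied with the room between the 3′ ends, in classes chosen after the values were seen. It was 20.2% (17.9 to 22.6%) of 1126 ends that overlap their partner, 24.5% (19.8 to 29.8%) of 278 with a gap of 0 to 100 nt, 31.5% (25.7 to 37.9%) of 219 with over 100 and up to 250 nt and 34.9% (27.7 to 43.0%) of 146 with over 250 and up to 500 nt. With more than 500 nt it was 21.2% (15.6 to 28.2%) of 160. Overlapping ends had a site less often than tandem ends, by -7.63 points (-11.1 to -4.17). For the other 4 classes the interval of the difference from tandem ends included 0. A whole eligible window leaves out tandem ends whose next gene starts within 250 nt, but not convergent ends. At a gap of over 250 and up to 500 nt in both groups, convergent minus tandem was 7.89 points (-0.269 to 16.6). With more than 500 nt in both it was -7.39 points (-14.1 to 0.378). At matched gaps the direction thus differed, and both intervals included 0.

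**Figure D2:**
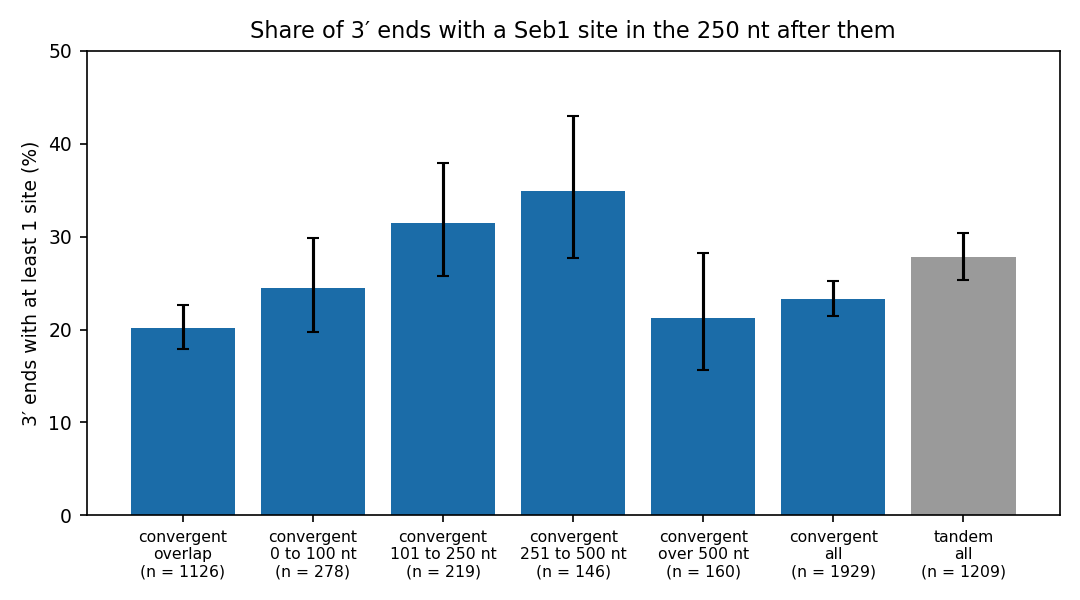
Share of 3′ ends with at least 1 site in the 250 nt after them, in percent, for convergent ends by the gap to the partner, for all convergent ends and for tandem ends. Bars are shares of ends with a whole eligible window and error bars are 95% Wilson intervals. The share is 20.2% for overlapping ends and 34.9% for a gap of over 250 and up to 500 nt, and 27.8% for tandem ends.

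Opposite the partner gene, on RNA antisense to it, lay 668 of the 1183 sites (56.5%, 53.6 to 59.3%), while 70.2% of all eligible uridines at convergent ends lay opposite a protein-coding gene. The share of sites was 48.9% among sites with at least 3 transitions and 50% among those with at least the median read coverage. With only 1 site per end, that with the most transitions, it was 66.6% (62.7 to 70.3%). That interval includes the 70.2% of uridines, so the contrast depends on ends with several sites. Of the 668 sites, 469 lay opposite its 3′ UTR, 185 opposite its coding sequence and 14 opposite its 5′ UTR. Another 511 sites lay before the partner's 3′ end and 4 beyond a short partner. The antisense sites reached a median of 203 nt past the partner's 3′ end, and 192 of them lay within the first 100 nt. With overlapping partners passed over, the share fell to 17.1% (14.7 to 19.7%), since a site with an overlapping partner lies opposite it unless it is beyond that partner's other end.

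Over the whole window, sites were denser where no coding gene lay opposite. Per 1000 uridines, there were 9.06 sites (8.29 to 9.87) in stretches without a coding gene on the other strand, 6.27 (5.72 to 6.85) opposite a UTR and 3.26 (2.81 to 3.76) opposite coding sequence, against 6.66 (6.27 to 7.07) at tandem ends. The density in the free stretches was 2.78-fold (2.34 to 3.30) that opposite coding sequence. It was 2.01-fold (1.60 to 2.56) within the first 100 nt after the 3′ end, and 2.26-fold (1.87 to 2.74) without ribosomal protein genes. Free stretches of convergent ends also had more sites per uridine than tandem windows, by 1.36-fold (1.22 to 1.51), or 1.18-fold (1.04 to 1.34) without ribosomal protein genes. Distance after the 3′ end was not matched between these 2 groups. The tandem windows were also not limited to nt without a coding gene opposite. Counted per end with at least 20 uridines in the zone, 197 of 853 ends (23.1%) had a site in a free stretch, 266 of 1471 (18.1%) opposite a UTR and 119 of 1004 (11.9%) opposite coding sequence. These zones, and the comparison without ribosomal protein genes, were chosen after the values were seen. Transcript level was not matched between zones and its part was not tested.

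**Figure D3:**
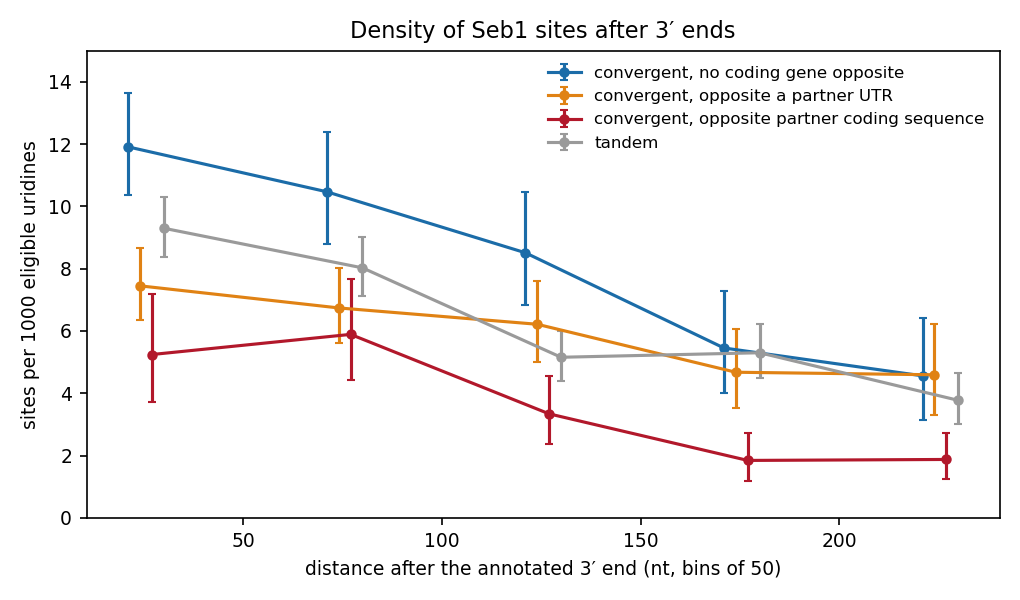
Sites per 1000 eligible uridines by distance after the annotated 3′ end, in bins of 50 nt, for convergent ends by what lies on the opposite strand and for tandem ends. Points are densities and error bars are exact 95% Poisson intervals, and points of 1 bin are moved apart sideways. In the first bin the density is 11.9 where no coding gene lies opposite, 7.45 opposite a UTR, 5.24 opposite coding sequence and 9.30 at tandem ends. In the last bin these densities are 4.56, 4.59, 1.87 and 3.77.

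The sites that lie deepest opposite a partner show how the annotation bears on this count. The deepest is at nup97, which encodes a nucleoporin, 69 nt after its 3′ end and 4478 nt past that of SPCC1620.12C, with 2 transitions in 7 reads. Another site of nup97 at 18 nt had 3 transitions in 12 reads. erg6, an enzyme of ergosterol synthesis, had sites at 190 and 183 nt with 3 transitions each, in 36 and 27 reads, 3809 and 3802 nt past the end of uvi31. SPCC1620.12C has an annotated 3′ UTR of 3336 nt and uvi31 one of 3910 nt, and nup97 and erg6 lie wholly opposite these genes. Both sites of nup97 lie opposite the coding sequence of SPCC1620.12C, past its UTR, whereas those of erg6 lie opposite the 3′ UTR of uvi31. In all, 95 sites belong to 42 genes that lie wholly opposite their partner, and 143 sites have a partner with an annotated 3′ UTR of more than 1000 nt.

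UGUA, the motif known for Seb1, was found within 25 nt of 752 of the 1183 sites (63.6%, 60.8 to 66.3%). The same held for 31.7% of all eligible uridines at convergent ends, a 2.00-fold difference, and for 43.4% of all nuclear sites. Tandem sites had UGUA at 66.3%, and the difference of -2.72 points (-6.66 to 1.23) was not distinguishable from 0 at this number of sites. Among all tetramers, GUAG (2.45-fold) and UGUA (2.00-fold) were the most enriched at convergent sites over eligible uridines, and these overlap in UGUAG, which was found at 21.0% of sites and 6.46% of uridines (3.25-fold). UACA, which is UGUA read on the other strand, was found at 22.4% of sites and 22.8% of uridines (0.984-fold), and UUUUU at 16.1% of sites and 23.4% of uridines (0.685-fold).

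At 240 sites (20.3%) the crosslinked base was the first U of a UGUA itself, against 2.28% of eligible uridines. The next most frequent arrangement had the crosslinked U 5 nt after the first U of the motif (69 sites, 5.83%, against 0.756% of uridines), which is the base just after UGUA and 1 letter. The second U of the motif was crosslinked less often than its share of uridines, at 14 sites (1.18%, against 2.29%).

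**Figure D4:**
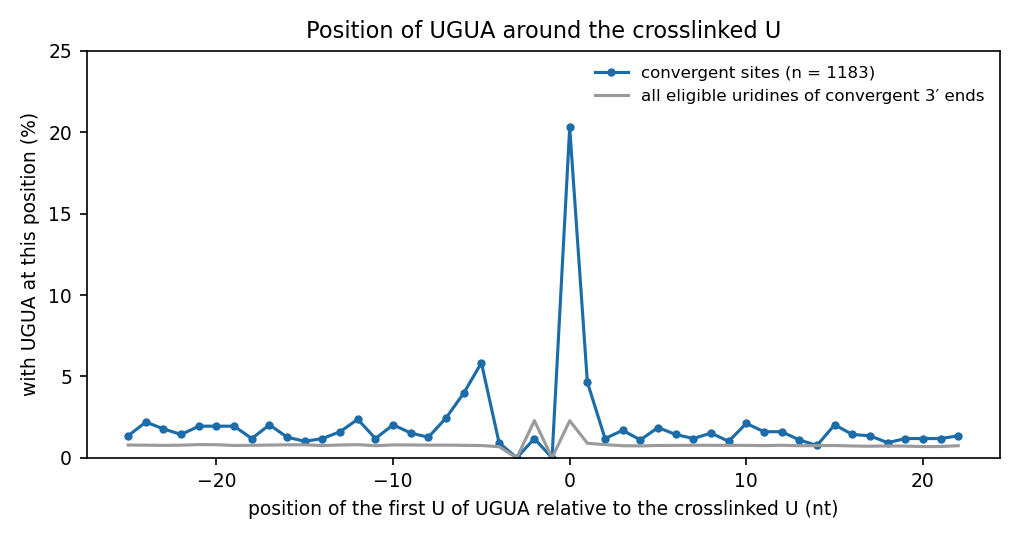
Share of convergent sites, in percent, with a UGUA whose first U lies at the given distance in nt from the crosslinked U (points), and the same share over all eligible uridines of convergent 3′ ends (grey line). At 0 nt the share is 20.3% of the 1183 sites and 2.28% of uridines. No UGUA can start 1 or 3 nt before a U.

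The motif was most frequent where sites were many and close to the 3′ end. It was found at 51.7% (46.5 to 56.9%) of the 352 sites that stand alone at their end, 65.0% (60.6 to 69.2%) of 469 sites at ends with 2 to 4 sites and 73.2% (68.4 to 77.5%) of 362 sites at ends with 5 or more. In the first 50 nt after the 3′ end 74.1% of sites had it, and in the last 50 nt of the window 51.5%. At least 2 copies were found around 27.3% of sites and 5.77% of uridines. Sites with UGUA had a median of 4 transitions in 33 reads, against 2 in 13 reads for sites without. The share was 68.2% in free stretches and 56.8% opposite coding sequence (a difference of 11.4 points, 3.32 to 19.6), but eligible uridines there had UGUA at 34.7% and 26.0%, so that the enrichment was 1.96-fold and 2.18-fold. The canonical PAS hexamer AAUAAA was found in the last 40 nt of the gene at 84 of 590 ends with sites (14.2%, 11.6 to 17.3%), against 366 of 2140 without (17.1%, 15.6 to 18.8%).

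Of 1241 gene pairs that face each other and have eligible nt at both ends, 51 had sites at both ends, 435 at 1 end and 755 at neither. A 3′ end whose facing end had a site carried one itself in 102 of 537 cases (19.0%, 15.9 to 22.5%), against 435 of 1945 (22.4%, 20.6 to 24.3%) where the facing end had none. Both ends of each pair were counted, so the 51 pairs enter as 102 ends. The ends of a pair are not independent, and the intervals do not allow for this. In 39 of the 51 pairs the sites passed each other, which means that at least 1 site of 1 gene lay further along than a site of the other. In 22 pairs the genes overlap, which contributes to this, and the remaining 17 crossed pairs have a gap of 0 nt or more. Only 8 pairs had at least 2 sites on both strands.

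Ranked by the number of sites on the poorer strand, the first pair was eft202 and rpl35A01, with 10 and 5 sites between 3′ ends that are 283 nt apart. By the total the pair of rpl3401 and rnf170 had more, with 20 sites and 1 site. The leading site of eft202 is among the sequences given above. The sites of eft202 had 7, 9, 16, 11, 6, 7, 6, 4, 3 and 3 transitions at 18, 23, 25, 30, 46, 55, 85, 104, 142 and 220 nt. Those of rpl35A01, which encodes ribosomal protein eL33, had 5, 3, 3, 3 and 4 transitions at 34, 39, 58, 67 and 113 nt. The last site of eft202 lay beyond 2 of the minus-strand sites, so the crosslinked stretches overlap.

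The next pairs were more uneven. rpl39 had 10 sites with 7 to 19 transitions, and the facing SPCC663.18 had 3 sites with 2 transitions each, 1 of them 239 nt after its 3′ end and thus within the cluster of rpl39. rpl1102, for ribosomal protein uL5, had 9 sites with 3 to 15 transitions, and pyr1, for pyruvate carboxylase, had 2 sites with 4 and 5 transitions, without crossing. SPAP27G11.12 had 2 sites with 2 transitions each, and nop10, for a protein of the small nucleolar RNPs, had 4 sites with 2 to 6, the nearest of them 1 nt from a site on the other strand. rps2402, for ribosomal protein eS24, had 3 sites with 3 or 4 transitions, and cnt5 had 2 sites with 2 and 3.

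**Figure D5:**
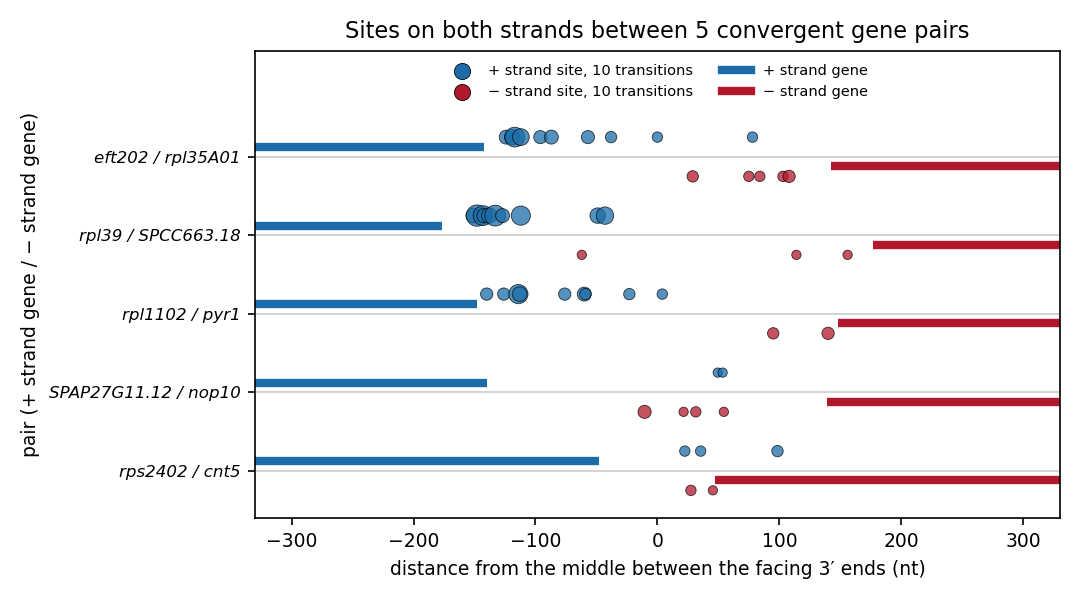
Crosslink sites on both strands of the 5 convergent pairs with the most sites on the poorer strand, by distance in nt from the middle between the facing 3′ ends. Blue stands for the plus-strand gene and its sites, red for the minus-strand gene and its sites, and circle area grows with the number of transitions. Sites of both strands pass each other in all pairs but rpl1102 and pyr1.

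Relative to transcript abundance the convergent sites stood lower than tandem sites. Their median occupancy was 0.0571 (0.0536 to 0.0616), against 0.111 (0.1 to 0.125) at tandem sites, with equal medians of 3 transitions. The RNA-Seq coverage was worked out here as transitions divided by occupancy, rounded, so it is not a separate measurement. At sites with an occupancy of 1 it equals the number of transitions. It had a median of 66 (62 to 70) at convergent and 32 (29 to 36) at tandem sites. Within the convergent sites the median occupancy was 0.0811 (0.0702 to 0.0928) where no coding gene lay opposite, 0.0513 (0.0463 to 0.0549) opposite a UTR and 0.0455 (0.0400 to 0.0513) opposite coding sequence. Between these zones the coverage worked out in this way differed little, with medians of 64 (56 to 74), 65 (58 to 75) and 69 (59 to 77), while the median number of transitions was 4, 3 and 2. Whether the RNA-Seq reads were separated by strand is not given in the sources used here. Where they were not, mRNA of the partner would add to the coverage of antisense sites, and its part in the difference from tandem sites was not tested. At the maximum of 1 lay 26 convergent sites (2.20%) and 51 tandem sites (4.80%), a difference of -2.60 points (-4.22 to -1.09).

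The member sites with the most transitions stood apart from the others. They lie after rps1901 (288 transitions in 373 reads, 87 nt after the 3′ end), spo15 (123 in 142 reads, 137 nt) and nad1 (111 in 134 reads, 209 nt), all antisense to their partner and at an occupancy of 1. Transitions made up 77.2%, 86.6% and 82.8% of their reads, against a median of 14.3% over the other members. These genes encode ribosomal protein eS19, a protein of the spindle pole body and, by its annotation, an FAD synthetase. Their surroundings, again in ASM294v3, are shown because they share a string when the crosslinked base is read as C, namely chrII:3819109-3819137 on the plus strand, chrI:625022-625050 on the minus strand and chrIII:180474-180502 on the minus strand, with the place of the string in capitals as the genome has it.
rps1901: uaguaauaggcacgUCGACGAUCauggua
spo15: augaucuguaCCGAUGAUCcacugaacuc
nad1: cugcuguaacaauCUGACGAUCgccggca
With the 15th base of each read as C, all 3 hold CCGACGAUC, so that the transition completes the same 9 letters. The string was noticed after the values were seen, and these are the only 3 member sites that complete all 9 letters.

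The same string was completed at 106 of the 15789 nuclear sites, which held 22668 of 113943 summed transitions (19.9%). Their median was 72 transitions, with transitions in 86.3% of reads, against 2 transitions and 17.6% at all other nuclear sites. These letters also occur at the end of a 5′ RNA adapter common in small RNA sequencing. Which adapter was ligated here is not given in the sources used here, and the part of adapter sequence in these sites was not tested. Among the members, 10 sites completed at least the last 6 letters and held 549 of 6120 transitions (8.97%). Without them 1173 sites remained, at 584 ends, the highest number of transitions at 1 site was 41, and the share with UGUA was 63.6%.

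The next sites by transitions did not have such high shares of transitions. The one after rps2602, for ribosomal protein eS26, had 41 transitions in 334 reads (12.3%) at 31 nt, with an occupancy of 0.0567. The one after rpl4301 had 35 in 483 reads (7.25%) at 7 nt, with an occupancy of 0.198. Both have a UGUA within 25 nt, and the base crosslinked at rpl4301 is the first U of one.

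Ribosomal protein genes had a site at 67 of 80 convergent ends (83.8%, 74.2 to 90.3%) and held 286 of the 1183 sites, against 590 of 2730 (21.6%, 20.1 to 23.2%) of all convergent ends with an eligible nt. Among tandem ends of ribosomal protein genes 49 of 59 had a site, against 490 of 2125 of all tandem ends with an eligible nt. The lists were chosen with earlier results of these data known, so the counts are a description. A short list of 12 translation factor genes, which does not hold all such genes (tif512 and tif302, for example, are members outside it), had sites at all 6 of its convergent ends and at 5 of 6 tandem ends. Beside eft202 the convergent ones included tef5, for the exchange factor subunit of eEF1B, with 9 sites and 88 transitions, tef3, for eEF3, with 5 sites and 25 transitions, and tif471, for eIF4G, with 2 sites and 8 transitions.

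Genes of glycolysis and fermentation had sites at 6 of 8 convergent ends, against 21.6% of all convergent ends, and at 5 of 8 tandem ends. adh1, for alcohol dehydrogenase, had 7 sites at 27 to 223 nt with 10 to 14 transitions in 259 to 360 reads each, which is a narrow range over a long stretch. Their occupancy, in contrast, was 0.0449 and 0.0318 at 27 and 32 nt and 0.108 and 0.114 at 215 and 223 nt. The RNA-Seq coverage worked out from it was 312 and 314 at the former sites, and 102 and 105 at the latter. pyk1, for pyruvate kinase, had 5 sites with 56 transitions at 20 to 62 nt, pfk1, for phosphofructokinase, had 4 sites with 22 transitions that all lie opposite uba2, and pdc101, for pyruvate decarboxylase, had 2 sites with 22 transitions. A short list of 14 chaperone genes does not hold all such genes (cct8 and cct2, for example, are members outside it). Its genes had sites at 5 of 6 tandem ends, against 490 of 2125 of all tandem ends, and at 6 of 8 convergent ends, against 21.6%. Beside ssc1 the latter included psi1 and hsp90, with 4 and 3 sites and 11 transitions each, and hsp9, with 2 sites and 23 transitions.

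Histone genes had sites at 3 of 8 convergent ends, with 4 sites and 14 transitions at hhf3 (histone H4) and 1 site each at hta2 and hht3 with 3 and 2 transitions. Their only tandem end had none. Factors of 3′ end processing and termination had sites at 1 of 13 tandem ends and at 3 of 11 convergent ends, the latter near the 21.6% of all convergent ends. seb1 itself had 5 sites at 49, 114, 126, 150 and 172 nt with 4, 4, 5, 4 and 4 transitions, and 4 of them lie opposite byr4. These distances are from the annotated 3′ end. The seb1 locus of these cells carries the TAP tag and KanMX, and where its transcript ends was not examined. The other factors with sites were iss1, for a Fip1-like polyadenylation factor, with 3 sites and 6 transitions, all opposite cum1, and dis2, for a protein phosphatase, with 1 site and 2 transitions. With at most 4 members of each list named, the sites of the remaining members of these lists ranged from 1 to 2 per end, ribosomal proteins aside.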

How the data were processed

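PAR-CLIP reads were sequenced and aligned by the authors to ASM294v2, and crosslink sites were called by them from T-to-C transitions. Bowtie 1.1.1 and SAMtools stand among the tools in the submitters' processing notes. The site caller, its thresholds and the adapters are not given in the sources used here. The authors deposited per site the count of reads with a transition and the count of reads covering it, neither normalized, a p-value, which was not used further, and the occupancy, a ratio made by the authors with RNA-Seq coverage. RNA was digested with RNase T1, which cuts after G, so sites can be found only where fragments of usable length arise.

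All 15789 nuclear sites fall on a T of their strand in ASM294v3, which was checked before coordinates were used, and 35 other sites were left out. The next gene was the other protein-coding gene reaching beyond the 3′ end with the nearest edge. Coding sequence was taken from the start to the stop of translation, introns included. Shares have Wilson intervals, differences Newcombe intervals, density ratios exact conditional intervals, densities exact Poisson intervals and medians order-statistic intervals. No p-value was computed, since there is 1 library. PCR duplicates could not be recognised. The functions were run on simulated data with planted sites for the count, the density ratio, the UGUA share and the median distance. The sites were planted with the same rule, so this run cannot show an error in the rule itself. Scripts ran under Python 3.11.15. Tables were handled with pandas 2.3.3 and numpy 2.4.6, intervals computed with scipy 1.17.1, and plots drawn with matplotlib 3.10.9.

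The members and gene lists were chosen with earlier results of these data known. Named were the 10 ends with the most sites, the 5 sites with the most transitions, the 5 sites deepest opposite the partner, the 5 pairs richest on the poorer strand, at most 4 members per gene list and genes named in the study, of which 1 of the deepest sites and the sequence of 1 pair are not reported here. From the list of 3′ end factors clp1, pab1 and fip1 were taken out after the values were seen, since these symbols name other proteins in *S. pombe*. Alternatives covered minimum transitions, reads, occupancy, the window, the partner definition, opposite non-coding genes, annotated UTRs, 1 site per end, the motif distance and density per uridine.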

Additional observations from a re-analysis of the deposited data

How the results depend on the processing

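Of 78 values of the 8 results under 14 alternatives, 49 stayed within the limits set for them and 2 changed direction. The ratio of site densities, convergent over tandem, turned to 1.01 with overlapping partners passed over and to 1.33 at nt with no protein-coding gene on the opposite strand, and was 0.932 per uridine. The difference in the share of ends with a site was -1.24 points with overlapping partners passed over, -1.16 without nt opposite a non-coding gene and -1.45 with all ends, each with an interval including 0. With at least 3 transitions there were 702 sites, 10 pairs with sites on both strands, UGUA at 74.4%, a median distance of 69 nt, 48.9% of sites antisense to the partner and a median occupancy of 0.0698. With at least the median read coverage there were 770 sites, 9 such pairs, UGUA at 70.9% and 50% antisense. In a window of 100 nt there were 731 sites, 25 pairs, UGUA at 70.0%, a median distance of 45 nt and 52.7% antisense, and the shorter window itself lowers counts and distance. With overlapping partners passed over there were 29 pairs and 17.1% antisense. The antisense share was 60.7% without nt opposite a non-coding gene, 66.6% with 1 site per end and 61.0% without ribosomal protein genes. UGUA was found at 60.5% with 1 site per end, 60.6% without ribosomal protein genes and 46.5% within 10 nt. Where no construction is named, the cause was not tested. Leaving out ribosomal protein genes or sites that complete the shared string, and restricting to nt with no coding gene opposite, were chosen after seeing the data. No paired analysis was possible because only 1 library was used. With a median of 20 reads per site, the data limit statements to groups of sites.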
